A study of Mus musculus with 9 samples.

Results

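The cytosolic ribosomal protein genes are the genes whose products build, together with ribosomal RNA, the small and the large subunit of the ribosome in the cytoplasm. They were picked by name: a symbol of Rps or Rpl with a number and at most 1 further letter, plus Rplp0, Rplp1, Rplp2 and Rpsa and the paralogs Rps27l, Rpl22l1, Rpl36al and Rpl7l1, without pseudogenes. This rule found 86 of the 55401 genes in the tables, of which 32 carried a small-subunit name and 54 a large-subunit name. They lie on 19 chromosomes. Of the 86, 76 are the canonical genes, and 10 are paralogs or genes named after another member.

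The libraries came from H9M cells, mouse bone marrow cells transformed by retroviral co-expression of Hoxa9 and Meis1 as a model of acute myeloid leukemia. All groups share this transformation and carry an FGB-D lentiviral vector that gives each clone its color code. Donor marrow was lineage-negative and from C57BL/6-Ly5.1 mice, and the clones grew in lethally irradiated C57Bl6/J recipients. From splenocytes, thawed cKit+CD11bdim cells of 1 color code each were sorted and their total RNA was sequenced, in 3 groups of 3 libraries. The pre-malignant libraries were of 3 clones in mouse #15, which was sacrificed early, namely 43BC-D, 38BC-D and 33BC-D. After outgrowth these clones formed the de novo expanded group, with 33BC-D taken from mouse #17, 43BC-D from mouse #14 and 38BC-D from mouse #13. The stably expanded group was 1 clone, 34BC-D, from mice #13, #14 and #17. Pre-malignant state and mouse #15 cannot be told apart in this design, and neither can stable expansion and clone 34BC-D. Ages of the mice were not given in the sources used here. P-values measure only the spread between these libraries, which for the pre-malignant group is that of clones within 1 mouse and for the stably expanded group that of 1 clone between mice. The table columns carry a library number, which the sample descriptions tie to a group but not to a mouse or clone, so the libraries are numbered 1 to 3 within a group, and these numbers pair nothing across groups.

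Each ribosome needs 1 copy of nearly every ribosomal protein, so these genes are transcribed strongly in all dividing cells and are usually regulated as a set. Their mRNAs start with a 5' terminal oligopyrimidine (TOP) tract, a C followed by several further C or T bases. Through this tract mTORC1 and the RNA-binding protein LARP1 control their translation. Loss of a single copy of some of them causes Diamond-Blackfan anemia in people, a failure of red cell production, and the 5q deletion in myelodysplasia removes RPS14. MYC raises the output of ribosomes in many leukemias.

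Library depth was 10379739 to 15551196 reads on genes. Kit, Itgam (CD11b) and Ptprc (CD45), whose products the sorting gate used, had at least 1700, 333 and 3573 reads in every library, and Itgam rose in stably expanded over pre-malignant libraries (log2 fold change 0.61, limma adjusted p = 0.0485). Mpo ranged from 19616 to 241862 reads, with the highest value in de novo expanded library 3. Summed B cell markers (8 genes) were at 226 to 273 reads per 1000000 reads on genes (CPM) in pre-malignant, 75.8 to 225 in de novo expanded and 86.003 to 107 in stably expanded libraries. All 8 had a lower mean in the de novo expanded than in the pre-malignant group with none called. In stably expanded over pre-malignant libraries 7 of the 8 were lower, and 5 were called lower (call rule given with the comparisons). There 2.75% of all genes tested were called in either direction. Cd79b was higher there (log2 fold change 0.99, limma adjusted p = 0.0796). Summed T cell markers (8 genes) stayed between 1.24 and 5.76 CPM and erythroid markers (8 genes) between 2.29 and 35.2 CPM, with the pre-malignant libraries at 18.9 to 35.2 CPM. Macrophage markers (8 genes) summed to 115 to 285 CPM. Of the 4 tested in stably expanded over pre-malignant libraries, 2 were higher and 2 lower. Csf1r was called lower there (log2 fold change -1.71, limma adjusted p = 0.00412), and Vcam1 was higher without a call (2.03, limma adjusted p = 0.0729). Platelet markers (6 genes) summed to 30.1 to 66.4 CPM, mostly from Itgb3 with 428 to 1008 reads, while Ppbp and Gp1bb had 0 reads in every library. Reads on Olfr and Vmn genes, receptors of nasal sensory neurons, made up 0.00833% to 0.0186% of pre-malignant, 0.00385% to 0.0121% of de novo expanded and 0.00219% to 0.00813% of stably expanded libraries. The part of these differences in the values of the ribosomal protein genes was not tested, apart from a fit with the Olfr and Vmn share as covariate.

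The bases around the annotated start of the mRNA are shown first, because the TOP tract is the feature for which these genes are known. RefSeq promoters of build GRCm38.p6, the build of the tables, were matched for 64 of the 86 genes. A tract was counted where a C was followed by at least 5 further C or T on the gene's strand, inside 30 bases centred on a RefSeq start (15 before and 15 after it). At least 1 such tract was found for 37 of the 64 genes (57.8%) and for 25.4% of 26961 other genes. Capitals mark the longest tract in the following windows, which belong to genes named in the comparisons. Rpl4 is among them as the gene with the most reads.
Rps15a (chr7:118116133-118116162, minus strand): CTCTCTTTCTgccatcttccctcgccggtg
Rpl27a (chr7:109519180-109519209, plus strand): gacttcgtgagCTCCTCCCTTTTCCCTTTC
Rpl34 (chr3:130730384-130730413, minus strand): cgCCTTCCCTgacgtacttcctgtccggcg
Rps27l (chr9:66946071-66946100, plus strand): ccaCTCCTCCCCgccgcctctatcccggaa
Rpl4 (chr9:64173372-64173401, plus strand): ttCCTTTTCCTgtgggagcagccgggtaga
Rps7 (chr12:28635939-28635968, minus strand): gcttccggtttccacccacctacttccgct
Rps19 (chr7:24884577-24884606, plus strand): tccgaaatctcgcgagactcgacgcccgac
Rpl27 (chr11:101442230-101442259, plus strand): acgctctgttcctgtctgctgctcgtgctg
The first 5 windows hold a tract and the last 3 hold none of this form. The first 15 bases of each window lie before the RefSeq start. The marked tracts of Rps15a, Rpl34, Rps27l and Rpl4 lie wholly within those bases, and that of Rpl27a spans the start. A tract counted here therefore need not be part of the annotated mRNA, and the shares above are not shares of mRNAs that begin with a tract. The windows of Rps15a and Rpl34 also hold a shorter, unmarked tract of this form. That of Rps15a (cttccctc) begins at the RefSeq start, and that of Rpl34 (cttcct) begins 1 base after it. RefSeq and GENCODE starts can lie apart, by 221 bases for Rps19 and 41 bases for Rps15a, so an absent tract says only that these letters were not in this window. The letters CCGGAAG, part of a binding motif of ETS factors, were searched on both strands of the 300 bases from 250 before to 50 after the start. They were present for 25 of the 64 genes (39.1%) and for 9.86% of the other genes, and on the reverse strand the match CTTCCGG can share its CTTCC with a tract. No promoter was matched for 22 genes, among them Rps27a, Rplp1, Rpl8 and Rpl29.

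Most of the genes were expressed strongly, at levels that differed widely from gene to gene. In all, 57 of the 86 had at least 1000 reads in every library. Per kilobase of annotated exon, the median canonical gene was at 96.7 CPM per kb over the 9 libraries. The highest level per length was that of Rplp1, a protein of the stalk that recruits elongation factors, with 1031 CPM per kb, followed by Rpl8 with 840 CPM per kb and Rpl4 with 698 CPM per kb. Rpl36 was next with 577 CPM per kb on only 383 exonic bases. Exon lengths here are those of the union of all annotated isoforms, which is 6270 bases for Rps15a, so a gene with long alternative isoforms has a low level on this scale. By reads the order was different: Rpl4 had 176941 reads over all libraries, Rpl8 144042, Rps3 95295, Rpsa 89903 and Rplp0 83004.

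**Figure D1:**
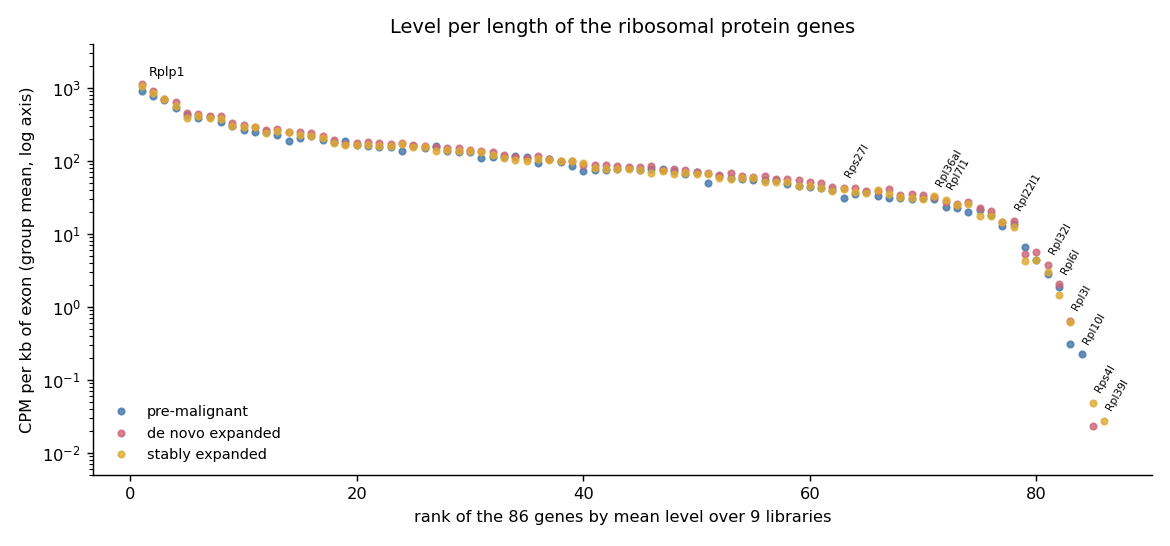
Group mean CPM per kb of exon (log axis) of the 86 genes against their rank, with 3 points per gene for the 3 groups and the names of the paralogs and like-named genes. The levels run from Rplp1 at 1031 CPM per kb to Rpl22l1 at 13.8 CPM per kb without a gap and then drop through Rpl24, Rps10, Rpl32l, Rpl6l and Rpl3l to the 3 untested genes, where a group with no read has no point.

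The low end was made up of paralogs and of 2 genes with annotation overlaps. Rpl10l, a retrogene of Rpl10 used in male germ cells, had 10 reads in pre-malignant library 2 and 0 in the other libraries, and a count of 0 allows a level of up to 0.193 to 0.289 CPM depending on the library. Rps4l had 3 reads and Rpl39l 1 read in all 9 libraries together. These 3 genes did not reach a mean normalized count of 10 and were not tested, which leaves 83 tested genes. Rpl3l, a muscle form of Rpl3, had 111 reads, Rpl32l 165 and Rpl6l 198. Rpl24 had 703 reads and Rps10 1420 reads, the fewest of the canonical genes, followed by Rpl39 with 2489. Rpl24 shares 47.0% of its exonic bases on the same strand with Gm28037, which had 0 reads. Rps10 shares 20.6% with the read-through gene RPS10-NUDT3, also with 0 reads. Levels of Rpl24 and Rps10 are therefore uncertain. The same limit holds for Rpl13a and Rpl36al, which share 35.4% and 24.5% of their exonic bases on the same strand. Rpl13a shares them with Gm45713 (1 read in all libraries) among others, and Rpl36al with Gm49383 (12 reads).

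The spread between libraries was small. The SD of log2 CPM over the 9 libraries had a median of 0.17 across the tested genes, and was lowest for Rpl13 (0.09), Rpl26 (0.09) and Rpl6 (0.10). It was highest for Rpl3l (1.31), Rpl32l (0.80) and Rpl6l (0.40), which had 2 to 34, 4 to 33 and 10 to 35 reads in a library, so counting error alone is large there.

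Summed over all 86 genes, the ribosomal proteins took 1.72%, 1.80% and 2.04% of the reads of the pre-malignant libraries, 2.13%, 2.04% and 2.06% of the de novo expanded libraries and 1.86%, 2.13% and 1.79% of the stably expanded libraries. The means were 1.85% ± 0.168 (SD, n = 3), 2.07% ± 0.0512 and 1.93% ± 0.182. The 95% Wilson interval of a single share reached at most 0.00818 percentage points to either side, which covers counting error only. The de novo expanded libraries were thus close together, while pre-malignant library 3 and stably expanded library 2 lay within their range and the other pre-malignant and stably expanded libraries below it. Highest and lowest libraries were shared by many genes: of the 83 tested genes, 27 were highest in de novo expanded library 1, 18 in stably expanded library 2 and 15 in pre-malignant library 3, and 38 were lowest in stably expanded library 3 and 29 in pre-malignant library 1. Stably expanded library 3 was also the shallowest library. Small-subunit genes held 39.94% to 40.02% of the ribosomal protein reads in the de novo expanded libraries and 39.3% to 39.5% in the other 6 libraries.

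**Figure D2:**
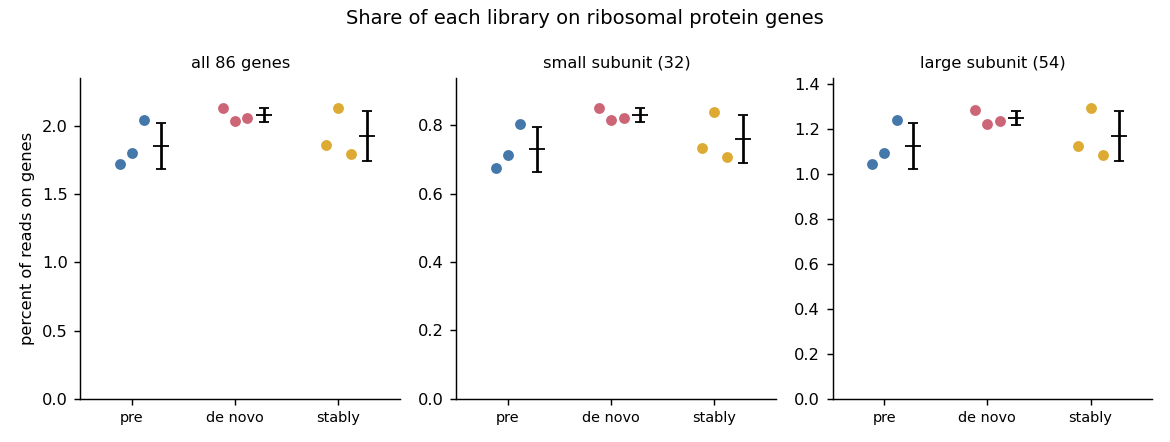
Percent of the reads on genes that fell on all 86 ribosomal protein genes, on the 32 small-subunit and on the 54 large-subunit genes, with 1 point per library and the mean ± SD of each group as a bar beside it. De novo expanded libraries sit between 2.04% and 2.13%, and the other groups each have 1 library within that range and 2 libraries at 1.72% to 1.86%.

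The first comparison asks what changed when the same clones grew out from the pre-malignant state. After outgrowth most ribosomal protein genes had slightly higher means, and no single gene passed the test. Fold changes are on the scale of log2(normalized count + 1), and a gene is called at a limma adjusted p under 0.05 with at least a 2-fold change. Of the 83 tested genes, 78 had a higher mean and 5 a lower one (among them Rpl23, Rpl24, Rps12 and Rps29), with a median log2 fold change of 0.18 (1.13-fold), where the median over all 14195 genes tested was 0.0079 and 51% of them were higher. No gene passed limma's test at an adjusted p of 0.05, with or without a 2-fold limit (0% of all genes tested), and the smallest adjusted p among the 83 was 0.347. At an unadjusted p of 0.05, 22 were higher and 0 lower, beside 5.99% higher and 5.26% lower of all genes tested. edgeR and DESeq2 also called 0 of the 83 at an adjusted p of 0.05, with 19 and 18 higher at an unadjusted p of 0.05. Of all genes tested, edgeR had 0 and DESeq2 132 at an adjusted p of 0.05, and 10.9% and 10.8% at an unadjusted p of 0.05 in either direction. In normalized counts, the 3 libraries of each group did not overlap for 32 genes, all higher in de novo expanded libraries (10.6% of all genes tested were higher without overlap and 8.5% lower). Counted in CPM this was 27 genes higher and 0 lower (9.25% and 9.28%).

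By subunit, the median log2 fold change was 0.20 for the 30 canonical small-subunit genes (28 higher) and 0.18 for the 46 canonical large-subunit genes (43 higher). The stalk proteins Rplp0, Rplp1 and Rplp2 were at 0.06, 0.36 and 0.24. The gene with the smallest p was Rps15a, a small-subunit protein mutated in Diamond-Blackfan anemia (chr7:118104372-118116188, minus strand). It was at 187, 193 and 208 CPM in the pre-malignant, 276, 244 and 256 in the de novo expanded and 206, 249 and 208 in the stably expanded libraries. All de novo expanded libraries were above all pre-malignant ones, with a log2 fold change of 0.42 (SE 0.09, limma adjusted p = 0.347). Over 18 alternatives its adjusted p ran from 0.0467 to 0.927 and passed 0.05 in 1, without de novo expanded library 3 (0.0467).

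Rps27a, which is made as a fusion of ubiquitin and a small-subunit protein (chr11:29545846-29548109, minus strand), had the largest fold change of the canonical genes in this comparison. Its CPM values were 90.3, 94.2 and 107 in pre-malignant, 134, 126 and 149 in de novo expanded and 119.9, 146 and 131 in stably expanded libraries. Both leukemic groups lay wholly above the pre-malignant libraries. The log2 fold change of de novo expanded over pre-malignant libraries was 0.51 (SE 0.11, adjusted p = 0.356 by limma).

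Rps7, a small-subunit protein of the Diamond-Blackfan list, had 192, 237 and 229.6 CPM in pre-malignant, 285, 264 and 285 in de novo expanded and 216, 250.1 and 324 in stably expanded libraries. Rplp1 had 411, 452 and 475 CPM in pre-malignant, 604, 534 and 554 in de novo expanded and 448, 562 and 588 in stably expanded libraries. The de novo expanded libraries were above the pre-malignant ones for both genes, while stably expanded library 1 lay inside the pre-malignant range for both. Log2 fold changes were 0.36 (SE 0.10) for Rps7 and 0.36 (SE 0.09) for Rplp1, with limma adjusted p of 0.381 and 0.369.

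Further genes among the 10 with the smallest p were Rpl27 (log2 fold change 0.46), Rpl34 (0.36), Rps27l (0.48), Rpsa (0.29) and Rpl9 (0.29), all without overlap between the groups and all with limma adjusted p between 0.380 and 0.384. Rpl27, a large-subunit protein (chr11:101442298-101445529, plus strand), went from 28.2, 31.97 and 31.1 CPM to 46.6, 38.6 and 39.4 CPM. Rpsa, the small-subunit protein also known as the laminin receptor, went from 585, 661 and 693 CPM to 787, 775 and 779 CPM. Of the other genes with the most reads, Rpl8 had a log2 fold change of 0.25, Rps3 of 0.20, Rpl4 of 0.07 and Rplp0 of 0.06. The count of genes at an unadjusted p of 0.05 rested on single libraries, with 38 genes without pre-malignant library 3 (9.54% of all genes tested in either direction), 8 without pre-malignant library 1 (5.85%), 12 without de novo expanded library 1 (8.21%) and 13 without pre-malignant library 2 (6.73%). With the Olfr and Vmn share as covariate it was 6 (4.68%), with 68 genes higher and a median of 0.10.

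**Figure D3:**
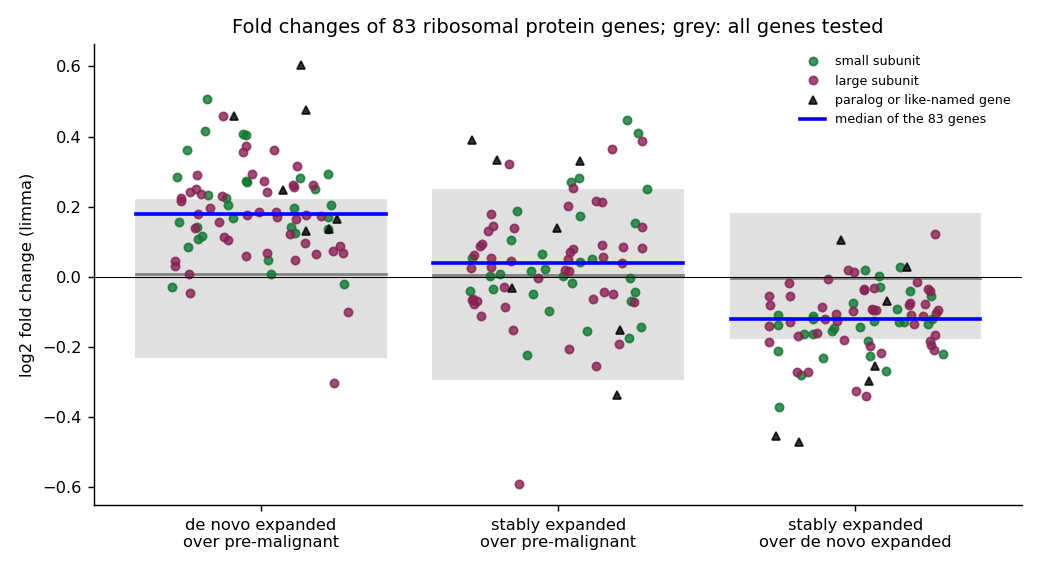
Log2 fold change of the 83 tested genes in the 3 comparisons, with canonical small-subunit genes in green, canonical large-subunit genes in purple and paralogs or like-named genes as triangles. The blue line is the median of the 83 genes (0.18, 0.04 and -0.12) and the grey band spans the 25th to 75th percentile of all genes tested with its median as a grey line.

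The second comparison sets the stably expanded clone 34BC-D against the pre-malignant clones. Here the set as a whole stayed near the median of all genes, with 51 genes higher and 32 lower and a median log2 fold change of 0.04 beside 0.0042 over 13968 genes tested, of which 50.5% were higher and 49.5% lower. This median has no firm sign: it was -0.02 with 35 genes higher after quantile normalization, -0.06 with 29 higher with the Olfr and Vmn share as covariate, -0.0089 without pre-malignant library 1 and -0.04 without stably expanded library 2. Without stably expanded library 3 it was 0.10 and without pre-malignant library 3 it was 0.11, while it was 0.0057 without pre-malignant library 2. Rps27a alone passed an adjusted p of 0.05 (7.95% of all genes tested did), and no gene was called with the 2-fold limit, by limma, edgeR or DESeq2 (2.75% of all genes tested by limma). At an unadjusted p of 0.05, 10 genes were higher and 0 lower, beside 13.2% higher and 12.3% lower of all genes tested. The 10 genes are 12.0% of the 83, close to the background for higher genes, while none was lower. Groups did not overlap in normalized counts for 8 higher and 2 lower genes (16.1% and 14.6% of all genes tested), and in CPM for 6 and 2 genes (15.5% and 14.7%).

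Rps27a was higher in all 3 stably expanded libraries than in all pre-malignant ones, with a log2 fold change of 0.45 (1.36-fold, SE 0.10, limma adjusted p = 0.0284). It stayed above 0 in each of 18 alternatives, from 0.39 to 0.52, and passed an adjusted p of 0.05 in 12 of them, with adjusted p from 0.00502 to 0.591. It missed that threshold when pre-malignant library 1 (adjusted p = 0.0989) or 2 (0.109) was left out, or library 2 (0.0734) or 3 (0.0506) of the stably expanded group, in a limma fit of all 9 libraries (0.0918) and with the Olfr and Vmn share as covariate (0.591).

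Among the genes next to it by p were Rpl7l1 (log2 fold change 0.33, limma adjusted p = 0.0604), Rpl27 (0.39, 0.0814), Rpl29 (0.36, 0.0992), Rps25 (0.28, 0.111), Rps23 (0.27, 0.129), Rps27l (0.39, 0.129), Rplp1 (0.25, 0.185) and Rpl38 (0.32, 0.188). Rpl7l1 is a large-subunit-like protein that acts in ribosome assembly, and its CPM was 75.7, 80.9 and 86.4 in pre-malignant, 101, 80.3 and 105 in de novo expanded and 106, 103 and 95.9 in stably expanded libraries. Rpl29, a large-subunit protein, was at 76.7, 81.3 and 90.1 CPM in pre-malignant and 91.2, 105 and 124 CPM in stably expanded libraries. Each stably expanded library was above every pre-malignant one for both genes. The 2 genes lower without overlap were Rpl13a and Rpl24. Rpl13a, a large-subunit protein with a second role in silencing of inflammatory mRNAs (chr7:45125558-45128761, minus strand), was at 46.0, 42.9 and 45.5 CPM in pre-malignant and 35.2, 41.2 and 36.2 CPM in stably expanded libraries (log2 fold change -0.25, limma adjusted p = 0.205). Rpl24 had a log2 fold change of -0.59 (limma adjusted p = 0.206) on 43 to 122 reads a library.

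The third comparison sets the stably expanded clone against the de novo expanded clones, both from the same 3 endpoint mice. Most genes were slightly lower in the stably expanded libraries, 75 of 83, with 8 higher, a median log2 fold change of -0.12 and a median over all 13758 genes tested of -0.0021 (49.6% of them higher and 50.4% lower). None passed an adjusted p of 0.05 by limma, edgeR or DESeq2 (0.00727% of all genes tested by limma), and the smallest adjusted p was 0.891. At an unadjusted p of 0.05 there were 0 higher and 2 lower by limma (2.72% and 2.11% of all genes tested), and 2 by edgeR and 1 by DESeq2. Groups did not overlap for 10 genes, all lower in stably expanded libraries (4.95% of all genes tested were lower without overlap and 4.66% higher), and for 7 genes in CPM, again all lower (4.93% lower and 4.78% higher). The median was -0.06 without stably expanded library 3 and -0.19 without stably expanded library 2.

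The 2 genes were Rpl27a and Rps19. Rpl27a, a large-subunit protein (chr7:109519147-109522367, plus strand), was at 209, 206 and 233 CPM in pre-malignant, 247, 227 and 229.6 in de novo expanded and 178, 213 and 170.3 in stably expanded libraries. Its stably expanded libraries were all below the de novo expanded ones, with a log2 fold change of -0.33 (SE 0.11, limma adjusted p = 0.891). Rps19, the most often mutated gene of Diamond-Blackfan anemia (chr7:24884371-24889806, plus strand), was at 196, 229 and 218 CPM in pre-malignant, 275, 243 and 248 in de novo expanded and 215, 232 and 187 in stably expanded libraries. Its de novo expanded libraries were thus the highest, and the log2 fold change of stably over de novo expanded was -0.27 (SE 0.11, limma adjusted p = 0.891). The remaining genes among the 10 with the smallest p had log2 fold changes of -0.34 (Rpl13a), -0.23 (Rps15a), -0.27 (Rpl10a), -0.23 (Rps14), -0.21 (Rpl36), -0.28 (Rps28), -0.18 (Rpl9) and -0.19 (Rpl21). Rps14, the gene lost with the 5q deletion in people, was at 157 to 195 CPM in pre-malignant, 184 to 189 in de novo expanded and 134 to 183 in stably expanded libraries.

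**Figure D4:**
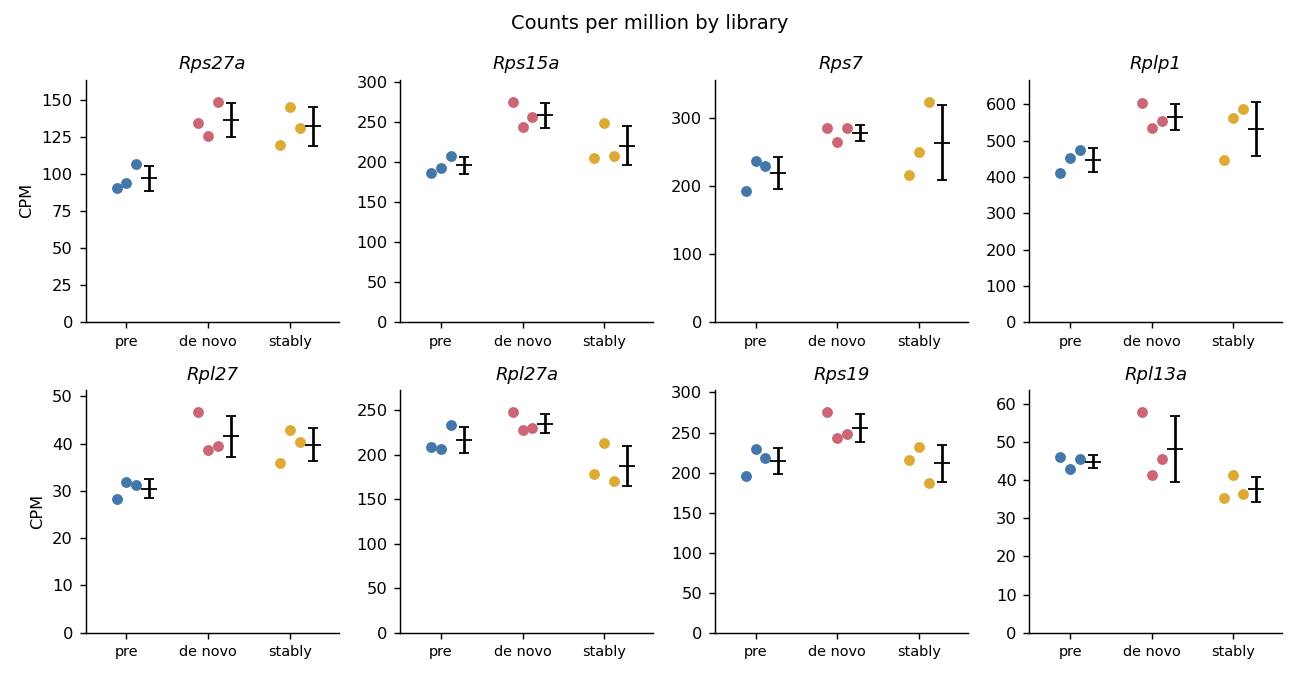
CPM of 8 genes in each library, with 1 point per library by group and the mean ± SD beside it, axes from 0. Rps27a, Rps15a, Rps7, Rplp1 and Rpl27 are higher in every de novo expanded than in every pre-malignant library, and Rpl27a and Rps19 are lower in every stably expanded than in every de novo expanded library.

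Over the groups, 69 of the 83 tested genes had their highest mean CPM in the de novo expanded, 7 in the stably expanded and 7 in the pre-malignant libraries. The differences were small everywhere: a fold of more than 1.5 in either direction was reached by 1 gene of de novo expanded over pre-malignant libraries (Rpl3l), 1 of stably expanded over pre-malignant libraries (Rpl24) and 0 of stably over de novo expanded libraries. The 95% interval of the fold change stayed within 2-fold either way for 80, 79 and 80 of the 83 genes in the 3 comparisons.

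The 19 Diamond-Blackfan anemia genes among the 83 were described as a list. In de novo expanded over pre-malignant libraries 18 of 19 were higher (median log2 fold change 0.18), in stably expanded over pre-malignant libraries 11 were higher with a median of 0.02, and in stably over de novo expanded libraries 1 was higher with a median of -0.12. Genes were also split by a tract in the window of their nearest RefSeq start only. By that count 34 of the 64 genes had a tract, against 37 when any RefSeq start counted. Tested genes with a tract in this window and those without one had medians of 0.18 (33 genes) and 0.17 (29 genes) in de novo expanded over pre-malignant libraries. The medians were 0.0018 and 0.04 in stably expanded over pre-malignant and -0.13 and -0.09 in stably over de novo expanded libraries.

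Among the paralogs, Rps27l, a p53-regulated relative of Rps27, had 23.7, 23.6 and 29.7 CPM in pre-malignant, 36.8, 36.0 and 32.7 in de novo expanded and 29.6, 34.8 and 35.9 in stably expanded libraries, while Rps27 stayed between 73.4 and 89.3 CPM. The reads of Rps27l amounted to 31.8% ± 3.60 (SD, n = 3) of those of Rps27 in pre-malignant, 39.97% ± 2.94 in the de novo and 41.7% ± 6.50 in the stably expanded libraries. In CPM, Rps27l of stably expanded library 1 was just below pre-malignant library 3. The ratios did not overlap in either comparison with the pre-malignant libraries, and the exact two-sided permutation test gave p = 0.1 for both, the smallest that 3 against 3 libraries allow (adjusted p = 0.5 over 15 tests of 5 pairs). Per exon length, Rps27l stood at 48.3% of the level of Rps27. Rpl22l1, which can stand in for Rpl22 and is repressed by it, had reads amounting to 11.05% ± 1.89 of those of Rpl22 in pre-malignant, 10.2% ± 0.629 in the de novo and 8.60% ± 0.978 in the stably expanded libraries (exact permutation p = 0.7, 0.2 and 0.1 for de novo expanded against pre-malignant, stably expanded against pre-malignant and stably against de novo expanded, adjusted p = 0.9, 0.6 and 0.5). Rpl7l1 over Rpl7 was 19.6% ± 1.43, 20.5% ± 2.37 and 23.6% ± 2.66, Rpl36al over Rpl36a 55.9% ± 11.2, 51.2% ± 4.39 and 60.2% ± 9.85, and Rpl3l over Rpl3 0.103% ± 0.0354, 0.190% ± 0.191 and 0.187% ± 0.190 in the same order, with no exact permutation p under 0.2. The pairs of Rpl10l, Rpl39l and Rps4l gave no ratio, since these paralogs were not tested.

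**Figure D5:**
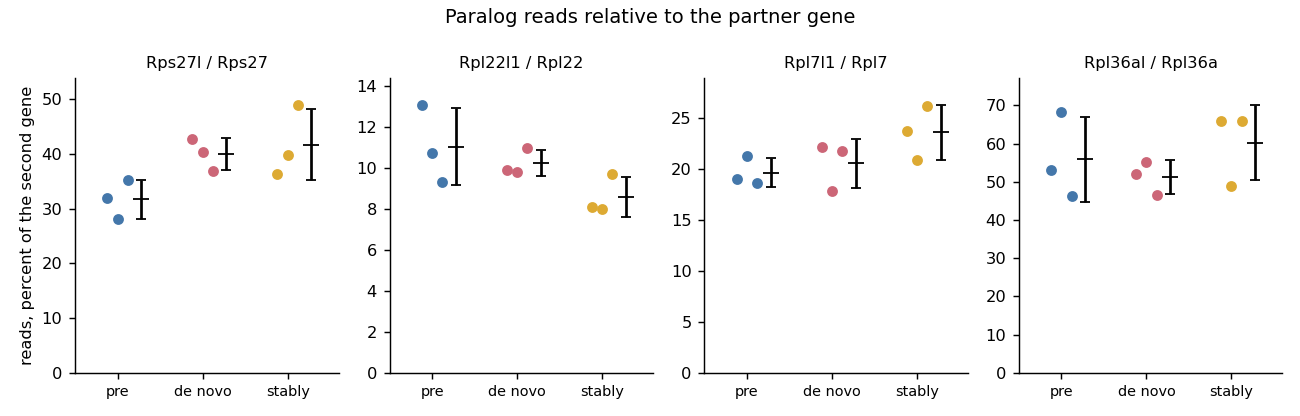
Reads of 4 paralogs as a percent of the reads of their partner gene, with 1 point per library by group and the mean ± SD beside it. Rps27l over Rps27 is at 28.0% to 35.2% in the pre-malignant and 36.4% to 49.0% in the other libraries, and the groups overlap for Rpl7l1 and Rpl36al.

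The single genes named in the following lists were chosen after their values were seen. Translation factors and other genes with a TOP tract (24 genes) had 17 higher (median log2 fold change 0.12) in de novo expanded over pre-malignant libraries, 15 higher and 0.05 in stably expanded over pre-malignant and 8 higher and -0.11 in stably over de novo expanded libraries. The elongation factors Eef1a1 and Eef2 were at -0.06 and 0.03 in the first of these, and Eef1d and Btf3 at 0.51 and 0.37. Of the 24 genes, 1 passed an adjusted p of 0.05, in stably expanded over pre-malignant libraries, where 7.95% of all genes tested passed. It was Snhg1, a noncoding host gene of small nucleolar RNAs, which was lower (log2 fold change -0.48, limma adjusted p = 0.0346). The similar host genes Gas5 and Snhg8 had log2 fold changes of -0.48 and -0.50 there, with limma adjusted p of 0.0615 and 0.175.

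Of 20 genes of the mTORC1 and LARP1 control of TOP mRNAs, 19 were tested against the pre-malignant libraries. Larp1 itself had log2 fold changes of 0.14 and -0.0065 in the comparisons of de novo and of stably expanded with pre-malignant libraries, and Mtor of -0.14 and -0.29. Tsc1, an inhibitor of mTORC1, and Akt1s1, which encodes the inhibitory subunit PRAS40, fell in stably expanded libraries by 0.56 and 0.55 on the log2 scale (limma adjusted p = 0.0131 and 0.0452). These 2 of the 19 genes passed an adjusted p of 0.05 in stably expanded over pre-malignant libraries, beside 7.95% of all genes tested. Deptor, another inhibitor of mTORC1, had a log2 fold change of 0.47 there (limma adjusted p = 0.0681), higher without overlap. Over the list, 9 genes were higher and 10 lower in both comparisons with the pre-malignant libraries, with medians of -0.0023 and -0.0065.

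The 20 chaperones of ribosomal proteins and late maturation factors, which carry single ribosomal proteins to the nucleolus or release the last assembly factors, had 18 higher (median log2 fold change 0.23) in de novo expanded over pre-malignant libraries, 14 higher and 0.18 in stably expanded over pre-malignant and 7 higher and -0.08 in stably over de novo expanded libraries. None passed an adjusted p of 0.05 by limma in any comparison (0%, 7.95% and 0.00727% of all genes tested did, in the same order). Mrto4, a factor of the stalk base, was at 0.43 and 0.44 against the pre-malignant libraries, Tsr1 at 0.30 and 0.16, and Grwd1, the chaperone of Rpl3, at 0.36 and -0.22.

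Annotation limits the single-gene values. In all, 28 of the 86 genes share exonic bases on the same strand with another gene row, among them Snora, Snord and Mir rows, and 19 overlap a gene on the other strand, while the strand setting of the counting is not given in the sources used here. For 60 genes the tables also hold pseudogene rows, 296 rows in all, with 43809 reads against 2460127 reads on the 86 genes. With reads of 38 bases a gene and its near-identical pseudogene copies cannot always be told apart.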

How the data were processed

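Total RNA of sorted cells was sequenced in 9 libraries, 3 per group. Per the study's methods and the submitters' processing notes, the authors ran bcl2fastq, Trim Galore 0.6.4, STAR 2.6.1d and featureCounts 1.6.4 against GRCm38.p6 with GENCODE annotation, and DESeq2 for each pair of groups. The deposited values are a signal, read counts divided by DESeq2 size factors, in 3 tables of 6 libraries. Whole reads were recovered from them (at least 99.99% of values within 0.05 reads of a whole number), which gave depth and CPM. Columns with the authors' own fold changes and p-values were not used. Columns carry library numbers, and each was given the group whose sample descriptions name the tables that hold that number.

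Each pair of groups was tested with limma 3.58.1 (trend, two-sided) on log2(normalized count + 1) for genes with a mean of at least 10, with Benjamini-Hochberg adjustment over all genes tested, and on the recovered reads with edgeR 4.0.16 and DESeq2 1.42.0. With 2-fold and adjusted p < 0.05, limma called 0, 384 and 1, edgeR 0, 377 and 1 and DESeq2 64, 528 and 32 of all genes when de novo expanded libraries were set against pre-malignant ones, stably expanded against pre-malignant and stably against de novo expanded. Paralog ratios were tested with an exact two-sided permutation test. The scripts were tested on simulated data. Genes named are the 10 with the smallest p per comparison, the 5 with the most and the 5 with the fewest reads, the 3 with the largest and the 3 with the smallest SD, paralog pairs, untested genes and called genes. Some items that this rule or the design would name are not reported here. The members and lists were chosen with earlier results of these data known. Wilson intervals and the floor of 3 reads cover counting error only.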

Additional observations from a re-analysis of the deposited data

Results flagged for a closer look

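Reads on the pseudogene rows of ribosomal protein genes, which enter no comparison of the report, made up a larger share in the de novo expanded libraries than in the pre-malignant ones. The shares were 0.0378%, 0.0363% and 0.0375% (mean 0.0372%) against 0.0304%, 0.0320% and 0.0342% (mean 0.0322%), without overlap. Stably expanded libraries had 0.0316%, 0.0391% and 0.0346%. The share of the 86 genes themselves was also higher in the de novo expanded group (mean 2.07% against 1.85%), and the part of it in the pseudogene share was not tested.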

How the results depend on the processing

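No paired analysis was possible because the library numbers in the table columns are tied to a group but to neither a mouse nor a clone, so nothing given links libraries across groups. The median log2 fold change of stably expanded over pre-malignant libraries turned from 0.04 to -0.020 with quantile normalization, -0.060 with the Olfr and Vmn share as covariate, -0.0089 without pre-malignant library 1 and -0.038 without stably expanded library 2, and ran from -0.038 to 0.11 when single libraries were left out. The same range was 0.15 to 0.26 for de novo expanded over pre-malignant and -0.19 to -0.06 for stably over de novo expanded libraries. The count of ribosomal protein genes at adjusted p < 0.05 in stably expanded over pre-malignant libraries was 1 by limma (1110 of 13968 genes tested), 2 without the filter on low values (1292 of 40665), 2 with a mean of at least 50 (1118 of 10292), 3 by DESeq2 (1711 of 13968), 0 in 1 fit of all 9 libraries (14 of 13968) and 0 with the covariate (5 of 13968). Leaving out single libraries gave 0 to 1 in both comparisons with the pre-malignant libraries and 0 to 0 in the third. The count at unadjusted p < 0.05 in de novo expanded over pre-malignant libraries was 22 (11.3% of all genes tested in either direction), and 6 with the covariate (4.68%). Without mitochondrial reads the share of the ribosomal protein genes was 2.11%, 2.35% and 2.14% in pre-malignant, de novo expanded and stably expanded libraries. The cause of these shifts was not tested.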

Other observations

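The number of pseudogene rows of a canonical gene went with its level only weakly, with a Spearman correlation of -0.16 across the 76 canonical genes between CPM per kb and the number of rows. Genes are not independent replicates and share the libraries, so this is a description. The 17 canonical genes without such a row had a median of 111 CPM per kb, and the 21 with 5 or more rows a median of 104 CPM per kb.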
